A study of Bos taurus with 6 samples.

Results

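Antioxidant enzymes were followed through 10 genes, namely SOD1, SOD2, CAT, GPX1, GPX4, PRDX1, PRDX2, PRDX3, TXN and GCLC, which cover superoxide, peroxide and thiol defence. Every probe set annotated to one of these symbols was kept, which gave 12 of the 24036 probe sets in the table. A probe set is a group of short probes on the Affymetrix Bovine Genome Array, read together as the level of 1 transcript. GPX1 and PRDX3 had 2 probe sets each and the other 8 genes had 1. In the ARS-UCD2.0 assembly the 10 genes are spread over 9 chromosomes, with PRDX2 and GPX4 both on chromosome 7.

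The question was whether these genes differed between cattle embryos that had and had not become blastocysts by day 8 of culture. Each of 3 blastocyst arrays (pools A, B and C) and 3 degenerative arrays (pools A, B and C) carried RNA from its own pool of 20 embryos made by in vitro fertilization, from oocytes of abattoir ovaries and frozen bull semen, and grown in synthetic oviductal fluid. All embryos had compacted by day 5 of development, per the methods of the study. Those graded as blastocysts had an inner cell mass and a blastocoele on day 8, and those graded as late degenerative had not completed this step. A pool mixes embryos of several cows and bulls, so the spread between pools is not that between single embryos. The methods of the study give 5 bulls in all and 3 to 5 per pool, so any pair of pools shared a bull. Whole embryos were lysed, so fewer cells of a type and less RNA per cell cannot be told apart.

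Superoxide leaks from the respiratory chain and from oxidases, and superoxide dismutases turn it into hydrogen peroxide, SOD2 in the mitochondrial matrix and SOD1 mainly in the cytosol. Hydrogen peroxide is then removed by catalase in peroxisomes, by glutathione peroxidases that use glutathione, and by peroxiredoxins that draw electrons from thioredoxin. Embryos in culture can meet more oxygen than in the oviduct, and antioxidant supply is a long-standing concern of in vitro embryo production. The methods of the study state no oxygen level for these cultures. No sequence of the members is printed, since the tables used here hold none.

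Values were log2 expression values from GCRMA with a floor of 2.12, and each array had a median of 6.35 to 6.48 across the 18937 probe sets that could be tested. Of 9 trophectoderm markers with a probe set, 8 were lower in degenerative pools, with a median log2 difference of -1.01 and a summed linear signal of 79663 to 101583 in blastocyst pools and of 59644 to 73334 in degenerative pools. All 3 genes listed as inner cell mass markers with a probe set (SOX2, POU5F1 and KLF4) were higher, with summed signals of 15573 to 17089 against 18598 to 32398. These sums came mostly from KLF4 (means 13.36 in blastocyst and 13.87 in degenerative pools) and POU5F1 (12.51 and 12.99). SOX2 was dimmer (7.74 and 8.77), and its groups overlapped. None of these 12 markers passed the test used below, and all 12 had a mean of at least 5 in 1 group or both. ELF5, listed with the trophectoderm markers, was the dimmest in degenerative pools, with a mean of 4.62. Whether each of the 12 genes is confined to its cell type in day 8 cattle embryos was not tested. Summed signals of cumulus and granulosa markers overlapped (4503 to 6076 against 3778 to 5394), with AMH and FOXL2 at the floor on all arrays and 4 of the 12 reaching a group mean of 5. These 4 were HSD3B1 (mean 11.75 in blastocysts and 9.59 in degenerative pools), STAR (7.93 and 8.25), HAS2 (10.31 and 10.76) and PTX3 (2.88 and 5.90). Those of 6 blood cell markers were 49 to 207 against 259 to 1147 and were carried by HBB, a globin, while PTPRC was at the floor. Of 6 control transcripts with probe sets at both ends, eIF-4E had a larger 3′ minus 5′ difference in every degenerative pool (9.13 to 9.87) than in any blastocyst pool (6.60 to 8.59). The 5′ probe set of eIF-4E was near the floor in degenerative pools A and B (2.64 and 2.56). Actin had a smaller 3′ minus 5′ difference in every degenerative pool (2.29 to 4.94 against 5.37 to 6.65), with its 5′ probe set near the floor on all arrays. GAPDH, elongation factor 1 alpha and cyclophilin overlapped, and GST was near the floor at both ends. The part of cell make-up and of RNA integrity in the values below was not tested.

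None of the 12 probe sets passed limma at the threshold chosen from the methods (adjusted p of at most 0.15), where 0.0211% of all probe sets tested did. SAM, the method used in the study, called 0 of the 12 at a false discovery rate of 15%, where it called 0.354% of all probe sets. At 25% it called 1 of the 12, SOD2, as lower, where it called 4.64% of all probe sets, 4.28% as lower. An unadjusted limma p under 0.05 was found for SOD2 and TXN, or 2 of the 12, both lower, against 8.61% of all probe sets, of which 5.27% were lower. Degenerative pools all lay below blastocyst pools for SOD2, GPX4 and TXN, or 3 of the 12, where 8.93% of all probe sets had no overlap in that direction and 15.4% had none in either. Of the 12 differences (degenerative embryos minus blastocysts), 8 were below 0, with a median of -0.11 against 0.0013 over all probe sets tested. All 12 were smaller than 1 on the log2 scale, a 2-fold difference, as were 89.1% of all probe sets. These shares include dim probe sets. In 11690 of all probe sets the brighter group mean reached 5. Of these, 1490 were lower without overlap and 2559 had no overlap in either direction. An unadjusted limma p under 0.05 was found for 1497, and SAM at 25% called 797. Of the 10 member probe sets that bright, 3 had no overlap, 2 had such a p and SAM called 1. Their median difference was -0.24, against -0.02 for the 11690.

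**Figure D1:**
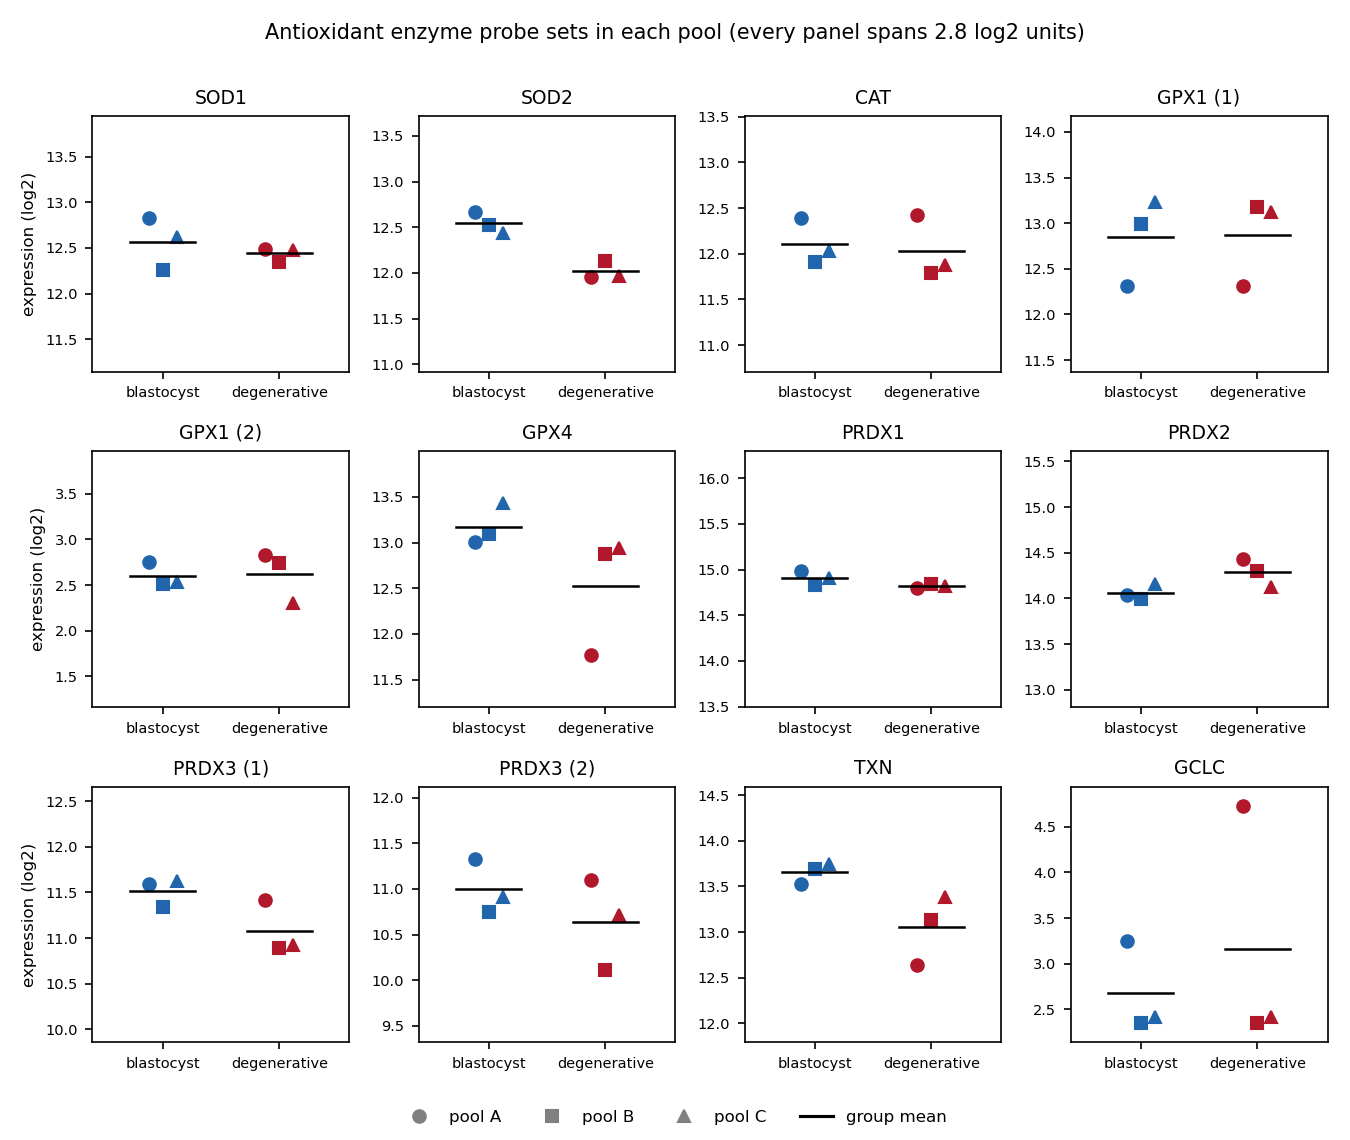
Log2 expression from GCRMA (vertical axis, each panel spanning the same number of log2 units but starting at its own level) of the 12 antioxidant enzyme probe sets in each pool. Blue points are blastocyst pools and red points degenerative pools, the marker shape gives the letter, and bars are group means. SOD2, GPX4 and TXN show no overlap between the groups, and GCLC and the second GPX1 probe set lie near the floor of 2.12.

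SOD2, the manganese superoxide dismutase of mitochondria, stood out from the other members by the smallest p. Its probe set (NCBI gene ID 281496) read 12.67, 12.52 and 12.44 in blastocyst pools A, B and C and 11.96, 12.13 and 11.97 in degenerative pools A, B and C. All degenerative pools were thus lower than all blastocyst pools, and each group was tight, with SDs of 0.12 and 0.10 (n = 3 pools each). The difference was -0.53 (standard error 0.09, 95% interval -0.76 to -0.30), a 1.44-fold lower level in degenerative embryos, with an adjusted p of 0.391 from limma that ranged from 0.312 to 0.819 over 11 other settings. Its unadjusted p of 0.00222 ranked 106 among the 18937 probe sets. SAM called SOD2 as lower at a false discovery rate of 25%. It made this call with no pool left out and lost it without any 1 of the 6 pools, when it called between 0 and 319 probe sets in all.

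SOD1, the copper and zinc enzyme, read 12.83, 12.25 and 12.62 in blastocyst pools and 12.49, 12.35 and 12.48 in degenerative pools (gene ID 281495). The degenerative pools lay within the range of the blastocyst pools. The difference was -0.13 (standard error 0.16, 95% interval -0.56 to 0.30, adjusted p = 0.786 from limma) and it was 0.0025 without blastocyst pool A. Whether SOD1 and SOD2 differed from each other in response was not tested.

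CAT, which encodes the peroxisomal catalase, was almost superimposed in the groups (gene ID 531682). Blastocyst pools A, B and C read 12.39, 11.91 and 12.03, and degenerative pools A, B and C read 12.42, 11.79 and 11.87. Pool A was the highest of its group on both sides, and the A pools differed from each other by 0.03. The group difference was -0.08 (standard error 0.23, 95% interval -0.68 to 0.52, adjusted p = 0.933 from limma).

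GPX1 (gene ID 281209) encodes the cytosolic selenium-containing glutathione peroxidase. Its bright probe set read 12.31, 12.99 and 13.23 in blastocyst pools and 12.31, 13.18 and 13.13 in degenerative pools. Pool A was the lowest of each group, and same-letter pools differed by 0.01 for A, 0.18 for B and -0.11 for C. The group difference was 0.03 (standard error 0.37, adjusted p = 1 from limma) with a 95% interval from -0.93 to 0.98. The second GPX1 probe set gave values from 2.30 to 2.83 on the 6 arrays, just above the floor, and a difference of 0.02 that carries little information on the transcript.

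GPX4, the glutathione peroxidase that reduces lipid hydroperoxides in membranes, had the largest difference in size among the members. Blastocyst pools read 13.00, 13.10 and 13.43 and degenerative pools read 11.77, 12.87 and 12.94 (gene ID 286809). The groups did not overlap, but degenerative pool A lay more than 1 log2 unit below the other degenerative pools, and the SD was 0.66 in degenerative embryos against 0.22 in blastocysts. The difference was -0.65 (standard error 0.37, 95% interval -1.62 to 0.32, adjusted p = 0.675 from limma), or 1.57-fold lower. Without degenerative pool A it was -0.27.

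Peroxiredoxins are abundant peroxidases with a reactive cysteine, PRDX1 and PRDX2 in the cytosol and PRDX3 in mitochondria. PRDX1 was the steadiest member, at 14.98, 14.83 and 14.91 in blastocyst pools and 14.80, 14.84 and 14.82 in degenerative pools (gene ID 281997). Its difference of -0.08 (adjusted p = 0.718 from limma, standard error 0.06) had the narrowest interval of the 12 probe sets, from -0.23 to 0.06, and was -0.05 without blastocyst pool A.

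PRDX2 was the bright member with the largest difference above 0. It read 14.04, 13.99 and 14.15 in blastocyst pools and 14.43, 14.30 and 14.13 in degenerative pools (gene ID 286793). Degenerative pools A and B lay above every blastocyst pool, whereas degenerative pool C lay just under blastocyst pool C. The difference was 0.22 (standard error 0.10, 95% interval -0.03 to 0.48, adjusted p = 0.617 from limma), or 1.17-fold higher.

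PRDX3 (gene ID 281998) was measured by a pair of probe sets, both with lower means in degenerative embryos. The first read 11.59, 11.34 and 11.62 in blastocyst pools and 11.42, 10.89 and 10.92 in degenerative pools. Degenerative pools B and C lay below all blastocyst pools and degenerative pool A lay among them. The difference was -0.44 (standard error 0.18, 95% interval -0.91 to 0.03, adjusted p = 0.599 from limma), and SAM called this probe set at 25% without degenerative pool A only.

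The second PRDX3 probe set read 11.33, 10.75 and 10.91 in blastocyst pools and 11.09, 10.11 and 10.72 in degenerative pools. The groups overlapped, yet each degenerative pool was lower than the blastocyst pool of its letter in both probe sets. The difference was -0.36 (standard error 0.31, adjusted p = 0.737 from limma). It was -0.09 without degenerative pool B, -0.19 without blastocyst pool A and -0.58 without degenerative pool A.

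TXN encodes cytosolic thioredoxin, which reduces peroxiredoxins and other protein thiols. Its probe set (gene ID 280950) read 13.52, 13.69 and 13.75 in blastocyst pools and 12.64, 13.13 and 13.38 in degenerative pools. Every degenerative pool was below every blastocyst pool, with the A pools the lowest of each group. The difference was -0.60 (standard error 0.21, 95% interval -1.16 to -0.04, unadjusted p = 0.0398 and adjusted p = 0.568 from limma), or 1.52-fold lower. It was -0.40 without degenerative pool A and lay between -0.77 and -0.56 without any other pool. TXNRD1, the reductase that recharges thioredoxin, had a difference of -0.02 (limma standard error 0.41, adjusted p = 1) that ran from -0.43 to 0.26 when single pools were left out.

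GCLC encodes the catalytic subunit of glutamate-cysteine ligase, the rate-limiting enzyme of glutathione synthesis. Its single probe set (gene ID 512468) was dim, at 3.25, 2.35 and 2.42 in blastocyst pools and 4.73, 2.35 and 2.42 in degenerative pools. Pools B and C were almost equal between the groups, and both A pools were higher. The difference of 0.49 (standard error 0.77, 95% interval -1.53 to 2.51, adjusted p = 0.831 from limma) therefore came from degenerative pool A, and it was -0.29 without that pool. Near the floor GCRMA compresses differences, so these values set no limit on a change in GCLC. GCLM, its modifier subunit, was measured well above the floor and read 9.07, 6.41 and 6.82 in blastocyst pools and 6.53, 5.69 and 5.72 in degenerative pools. Its groups overlapped, at a difference of -1.45 (limma standard error 0.80, adjusted p = 0.662), which was -0.64 without blastocyst pool A.

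**Figure D2:**
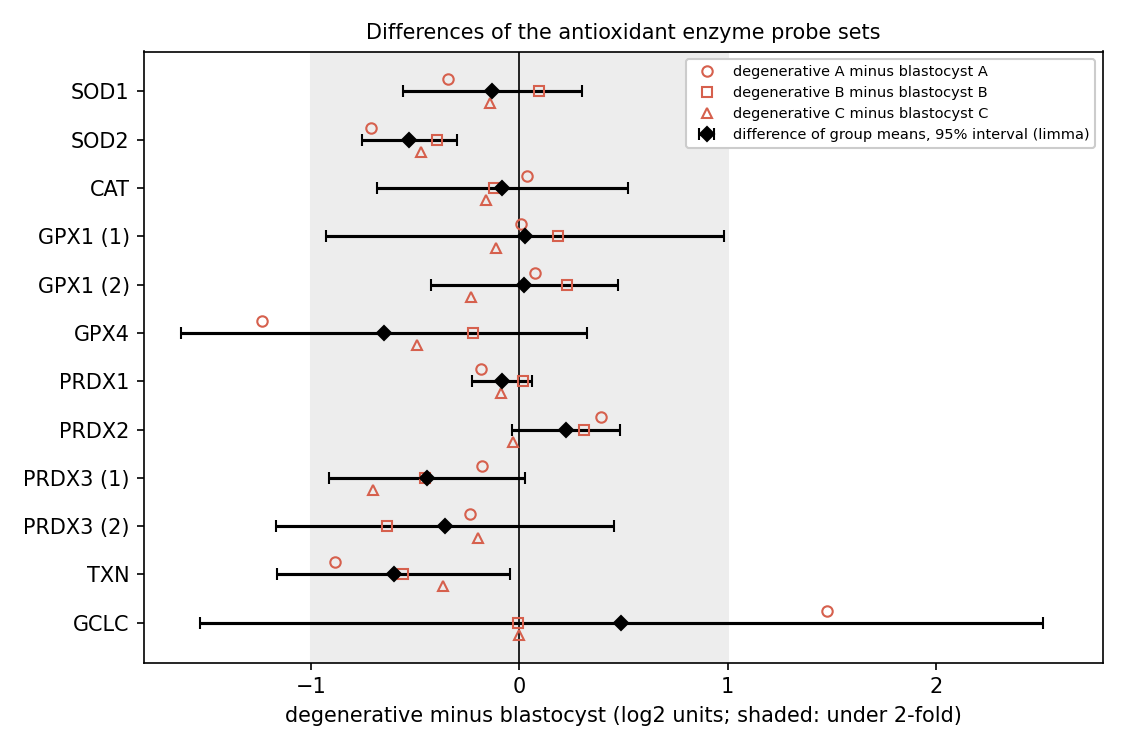
Degenerative minus blastocyst difference in log2 units (horizontal axis) for each antioxidant enzyme probe set. Black diamonds with bars are the differences of group means with 95% intervals from limma, open red markers are the differences between pools of the same letter, and the shaded band covers differences under 2-fold. The intervals of SOD2 and TXN lie below 0, PRDX1 has the narrowest, and GCLC has the widest.

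The precision of these comparisons differed widely among the members. The 95% interval of the difference lay wholly within 1 log2 unit of 0 for 8 of the 12 probe sets, as it did for 45.3% of all probe sets tested. For 7 of these, the bright ones of SOD1, SOD2, CAT, GPX1, PRDX1, PRDX2 and the first of PRDX3, a 2-fold difference lay outside the interval, which is unadjusted and covers the spread between 3 pools per group. The other was the dim GPX1 probe set, whose interval sets no limit so close to the floor. It reached beyond 1 log2 unit for GPX4, TXN, GCLC and the second PRDX3 probe set. The spread within groups (pooled SD) was below the median of all probe sets, 0.378, in 8 of the 12, and the median of the 12 was 0.257.

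Pool A lay at the same end of both groups for 8 of the 12 probe sets. It was the highest of both groups for SOD1, CAT, GCLC and the second probe sets of GPX1 and PRDX3. It was the lowest of both for GPX4, TXN and the bright probe set of GPX1. GCLC and the second GPX1 probe set lay near the floor. Pools B and C were not counted in this way, and no share of all probe sets was computed. Compared within letters, 5 of the 12 probe sets were lower in the degenerative pool of all 3 letters, namely SOD2, GPX4, TXN and both of PRDX3. For SOD2, GPX4 and TXN this follows from the lack of overlap and would hold under any pairing of the pools. The others are both of 1 gene. Over all probe sets tested 19% were lower and 15% were higher in all 3 letters. For SOD2 the within-letter differences were -0.71, -0.40 and -0.47, for TXN -0.89, -0.56 and -0.36, and for GPX4 -1.23, -0.22 and -0.49. What the letters stand for is not given in the labels, and it was not tested.

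Of the other genes of redox metabolism, 126 were listed in 7 groups, and 93 had a probe set that could be tested, taking for each gene the probe set with the highest mean. None passed limma at an adjusted p of at most 0.15, where 0.0366% of 8189 genes did, and SAM called none at 15%. At an unadjusted limma p under 0.05 there were 9, of which 6 were lower and 3 were higher, where 10.3% of all genes had such a p. Pools did not overlap between the groups for 20 of the 93 (21.5%, against 18.1% of all genes). SAM at 25% called 6 of the 93 (6.45%, against 5.23% of all genes), all lower in degenerative embryos, namely NFE2L2, GGCT, MGST2, SELENOF, SELENOP and GGT1. GGT1 lay within 0.1 of the floor in every pool. With all pools, SAM at 25% called 879 of all probe sets tested. Leaving out blastocyst pool A, B or C brought this to 0, so none of the 93 could be called. Leaving out degenerative pool B left 5 of all probe sets and none of the 93. Without degenerative pool A it called 319 of all probe sets and 1 of the 93, GSR. Without degenerative pool C it called 30 of all probe sets and 1 of the 93, SELENOP. The loss of calls was thus not particular to the redox genes. Of the 93 genes 48 were lower, or 51.6%, against 45.5% of all genes, and their median difference was -0.02 against 0.02.

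**Figure D3:**
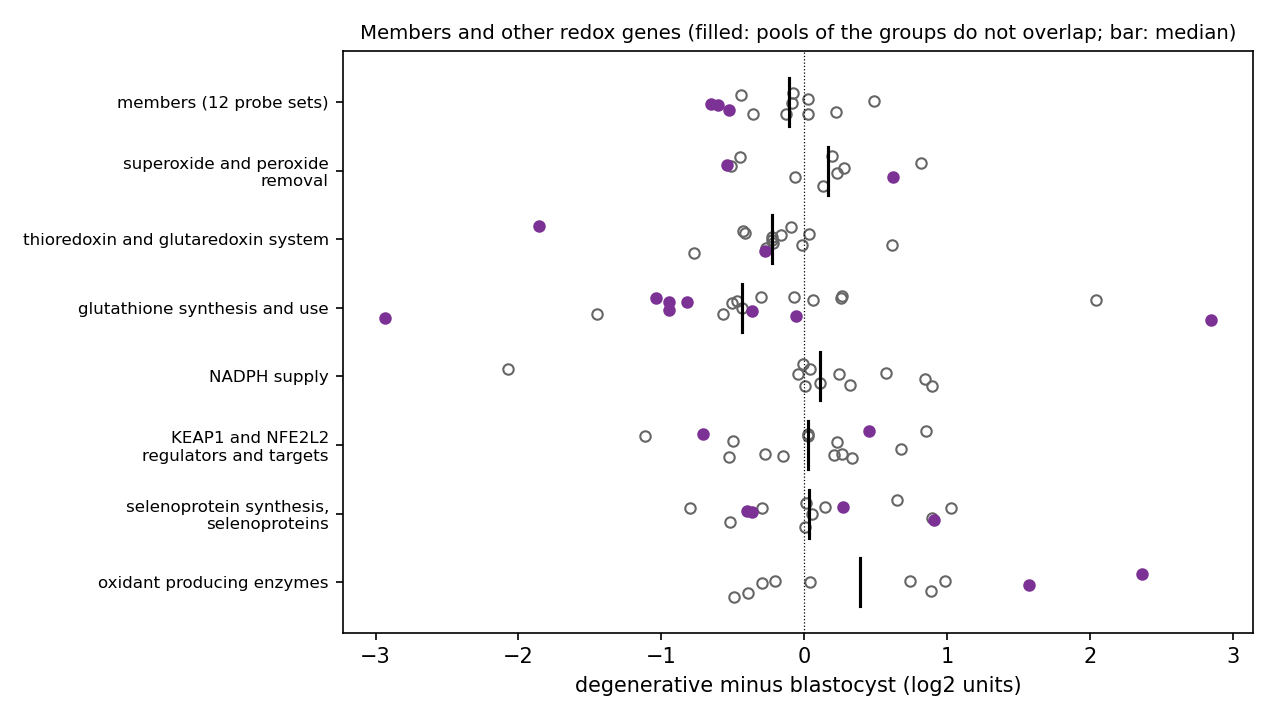
Degenerative minus blastocyst difference in log2 units (horizontal axis) of the member probe sets and of the other redox genes by group (rows), with 1 point a probe set. Filled points are those whose pools do not overlap between the groups, and vertical bars are medians. The median of the glutathione group lies at -0.43, and that of the members at -0.11.

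NFE2L2 encodes NRF2, the transcription factor that drives many antioxidant genes, and KEAP1 encodes the protein that marks it for degradation. NFE2L2 read 12.99, 12.70 and 12.66 in blastocyst pools and 12.13, 11.95 and 12.15 in degenerative pools. All degenerative pools were lower, at a difference of -0.71 (standard error 0.12). The adjusted p from limma was 0.398, and it lay between 0.280 and 0.819 under the other settings. The second probe set of NFE2L2 was dim, with means of 3.05 and 2.57. KEAP1 read 11.02, 10.60 and 10.55 in blastocyst pools and 12.29, 11.53 and 10.91 in degenerative pools, with overlap and a difference of 0.85 (limma standard error 0.40, adjusted p = 0.624). It was 0.50 without degenerative pool A. Of its other probe sets 1 differed by 0.12, and the other lay near the floor. SQSTM1, an autophagy receptor that binds KEAP1, had a difference of 0.45, and NQO1, a quinone reductase and classical NRF2 target, one of -1.12, which was -0.67 without degenerative pool C. This group of 15 genes had 6 lower and 9 higher members and a median of 0.03.

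In the group of superoxide and peroxide removal, 4 of 10 genes were lower and 6 higher, with a median of 0.16. PRDX4, the peroxiredoxin of the endoplasmic reticulum, was higher in every degenerative pool (11.58, 11.42 and 11.43) than in any blastocyst pool (10.68, 10.68 and 11.21), at a difference of 0.62 (limma standard error 0.17, adjusted p = 0.517). PRDX6, which also acts on phospholipids, was lower in every degenerative pool at a difference of -0.54 (adjusted p = 0.640), which was -0.26 without degenerative pool A. Its other probe sets differed by -0.32 and 0.53. PRDX5 had a difference of -0.51, which was -0.15 without degenerative pool A. CCS, the chaperone that loads copper into SOD1, had one of 0.28, which was 0.13 without blastocyst pool A, and both genes overlapped.

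Genes of glutathione synthesis and use had the lowest median of the 7 groups, at -0.43, with 14 of 19 lower. Of the 19, 8 had no overlap between the groups, where 18.1% of all genes had none, and 7 of these 8 were lower. Among all probe sets tested, dim ones included, 8.93% were lower without overlap. The share of all genes that were lower without overlap was not computed. The 7 include GGT1 (means 2.19 and 2.13) and GSTT1 (2.68 and 2.32), both near the floor in blastocysts and degenerative pools. GGCT, which releases oxoproline from gamma-glutamyl amino acids, read 9.88, 9.40 and 9.87 in blastocyst pools and 8.45, 8.32 and 9.28 in degenerative pools (difference -1.03, standard error 0.31, adjusted p = 0.532 from limma). MGST2, a membrane-bound glutathione transferase, had a difference of -0.95 (standard error 0.30, adjusted p = 0.537). GSTM3, a soluble glutathione transferase, went the other way, from 2.12, 2.27 and 4.18 in blastocyst pools to 5.33, 6.02 and 5.76 in degenerative pools (difference 2.85, standard error 0.64, adjusted p = 0.479 from limma). Blastocyst pools A and B lay near the floor for GSTM3, and related transferases may share probes with it. GSTT1 was dim in all pools, with a difference of -0.37.

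**Figure D4:**
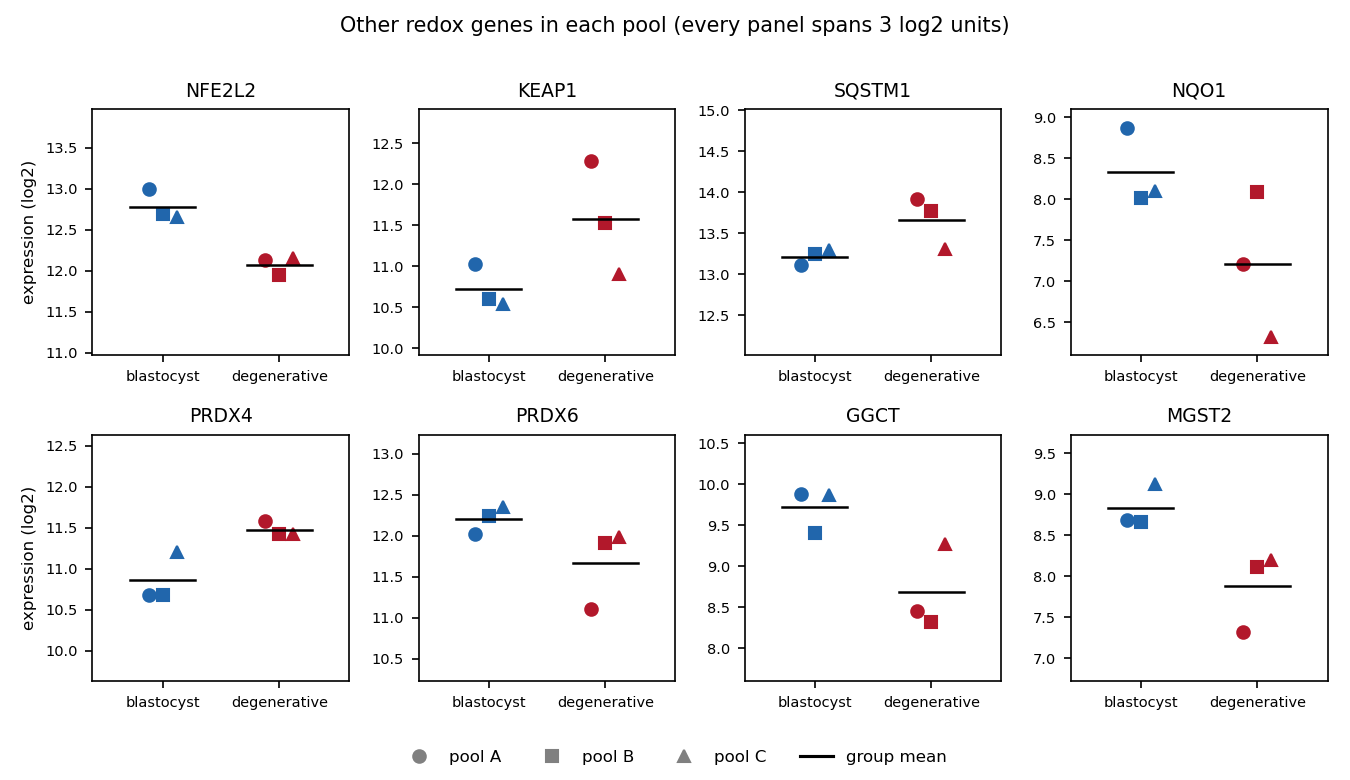
Log2 expression from GCRMA (vertical axis, equal span in each panel but its own starting level) of 8 redox genes outside the 10 members, by pool. Points, colours, marker shapes and bars are as in the plot of the member probe sets. NFE2L2, GGCT, MGST2 and PRDX6 are lower in all degenerative pools, SQSTM1 and PRDX4 are higher in all of them, and KEAP1 and NQO1 overlap.

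Among thioredoxin and glutaredoxin genes 12 of 14 were lower, with a median of -0.22. MSRA, which repairs oxidised methionine, had a difference of -1.86 that was -0.80 without degenerative pool A, and GLRX3, an iron-sulfur glutaredoxin, had one of -0.27 that was -0.16 without it. TXN2, the mitochondrial thioredoxin, had a difference of 0.61 and TXNDC9 one of -0.43, which was -0.27 without blastocyst pool A. Of 14 genes of selenoprotein synthesis and other selenoproteins 5 were lower and 9 higher, with a median of 0.03. SEPHS1, a relative of selenophosphate synthetase, differed by 0.91 with no overlap, SELENOF of the endoplasmic reticulum by -0.37 and SELENOP, a secreted selenium carrier, by -0.40, both also without overlap. SELENON differed by 0.89 at dim signals.

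Of 11 genes of NADPH supply, which feeds both the glutathione and the thioredoxin systems, 8 were higher, with a median of 0.11, and the groups overlapped for all 11, where 18.1% of all genes had no overlap. The pentose phosphate enzymes TKT and TALDO1 differed by 0.84 and 0.57, and by 0.45 and 0.33 without degenerative pool A. IDH2 differed by 0.90, which leaving out the A pool of blastocysts, of degenerative embryos or of both brought to 0.59, 0.22 and -0.08. ME3 differed by 0.24 near the floor, and by 0.02 without degenerative pool B. Of 10 oxidant-producing enzymes 6 were higher, with a median of 0.39. The monoamine oxidases MAOA and MAOB, which release hydrogen peroxide at the mitochondrial outer membrane, differed by 2.36 and 1.57 without overlap, MAOA being near the floor in blastocysts. MAOA differed by 1.32 without degenerative pool A and MAOB by 1.0 without blastocyst pool A, while the other probe set of MAOB differed by 3.51. POR differed by 0.74, and by 0.38 or 1.18 when degenerative pool A or C was left out. RAC1 differed by -0.39, and by -0.16 or -0.59 when these pools were left out, and its other probe set differed by -0.13. None of the genes named here passed limma.

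GCLC had the widest range of the member probe sets, 2.39 log2 units over the 6 arrays. The named probe sets nearest to its profile, by root mean square distance over the 6 arrays after centring, were those of MROH1 (0.059), DBN1 (0.063) and APBB3 (0.082). All 3 were dim like GCLC (group means under 5) and had their highest value in degenerative pool A and their second highest in blastocyst pool A.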

How the data were processed

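RNA of 6 pools of day 8 bovine embryos was amplified and hybridised to Affymetrix Bovine Genome Arrays, 1 per pool. The authors deposited log2 values, 1 for each probe set and array, computed by GCRMA (the submitters' processing notes give version 2.14.1), that is, background correction from probe sequence, quantile normalization and median polish. Arrays have no read depth, and the number of pools limits the precision. Quantile normalization hides a change in total RNA, and values near the floor are compressed. Of 24036 probe sets, 20 controls and 5079 whose value was the same on every array were not tested. Gene names come from the annotation of the platform, brought up to date with the ARS-UCD2.0 gene table.

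The other 18937 probe sets were tested together with limma 3.58.1 in R 4.3.3 (Benjamini-Hochberg over all of them, adjusted p of at most 0.15) and with SAM rewritten from its description (all 20 relabelings). Both were tested on simulated data without the probe sets of smallest spread. The constant that SAM adds to each spread came out at 1.033e-08. Small differences with very little spread could thus be called, such as that of GGT1 (-0.06). P-values measure the spread between pools. Alternatives were the letter as a block, centring on array medians, a minimum of 5 on the log2 scale, a trended and robust prior, other thresholds, leaving out each pool and, added after seeing the data, both A pools. Deviations from group means of same-letter pools correlated across probe sets at r = 0.373 (A), 0.180 (B) and 0.275 (C). Correlations between pools of different letters were not computed, so these values cannot show whether the letters pair the pools.

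The members and lists were chosen with earlier results of these data known. The genes named were all members, the up to 4 of each list with the smallest p, and the 3 nearest profiles. TXNRD1, GCLM, GGT1, GSR and the other SAM calls of the lists were named after their values were seen. Hypoblast (6 genes with a probe set, median 0.19) and spermatozoa (6, median 0.00) markers were also listed, and none of either passed limma. Summed signals of hypoblast markers overlapped (32782 to 38154 in blastocyst pools against 33919 to 52228). Those of spermatozoa markers did not (1935 to 2075 against 1278 to 1753) and came mostly from ODF2 (difference -0.44). PRM2 and ODF1 were constant at or near the floor.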

Additional observations from a re-analysis of the deposited data

How the results depend on the processing

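No member probe set passed limma at an adjusted p of at most 0.15, 0.25 or 0.05, with the letter as a replicate block, with centred arrays, without dim probe sets, with the trended prior, or without any 1 pool or both A pools. The same held for the 93 other redox genes, also where each was represented by its lowest-p probe set. SAM at 25% called 1 member probe set and 6 of those genes. Over all probe sets tested, limma called 4, and 0 with the replicate block, 1 with centred arrays, 1 without dim probe sets, 1 with the trended prior, 0 without both A pools, 30 at 0.25 and 0 at 0.05. Without any 1 pool it called 1 to 42. SAM called 67 at 15% and 879 at 25%. The cause of these changes was not tested.

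Signs turned for SOD1, CAT, both GPX1 probe sets and GCLC. Without any 1 pool the difference ran from -0.29 to 0.0025 for SOD1, from -0.28 to 0.059 for CAT, from -0.24 to 0.31 for the bright GPX1 probe set, from -0.078 to 0.19 for the dim one and from -0.29 to 0.90 for GCLC. Without both A pools it was -0.0004 for the dim GPX1 probe set, -0.0041 for GCLC and -0.081 for IDH2. SOD2, GPX4, PRDX1, PRDX2, both PRDX3 probe sets and TXN kept their sign in all 11 alternatives. Without dim probe sets there was no value for GCLC, the dim GPX1 probe set, GSTT1, MAOA, ME3 and SELENON.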
